A study of Mus musculus with 52 samples.

Results

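The genes described here are the Wnt ligands, the Frizzled and Lrp receptors, the R-spondins and the secreted inhibitors of Wnt signalling, with 4 intracellular genes of the pathway. They were taken by symbol: every mouse gene named Wnt, Fzd, Sfrp, Dkk or Rspo with a number, and Lrp4, Lrp5, Lrp6, Sost, Sostdc1, Wif1, Frzb, Notum, Axin2, Lef1, Tcf7 and Ctnnb1. The annotation holds 53 such genes, of which 45 are among the 20730 genes counted. By role these are 12 ligands, 10 Frizzled receptors, 3 Lrp co-receptors, 4 R-spondins, 12 secreted inhibitors and 4 intracellular genes. Wnt1, Wnt3, Wnt3a, Wnt7a, Wnt8a, Wnt8b, Wnt9b and Dkk4 were not analysed here. RNA was sequenced from flash-frozen primary mouse osteosarcomas, malignant bone-forming tumours, of 3 genotypes of the p53 gene. The group p53fl/fl (16 libraries) carries a pair of floxed alleles, p53R172H/fl (19 libraries) carries the missense allele R172H with 1 floxed allele, and p53R245W/fl (17 libraries) carries the missense allele R245W with 1 floxed allele. All 3 groups therefore share a floxed p53 allele, and no group is wild type for p53. For the Cre driver and the animals' age and sex, the sources used here say nothing. No label says that libraries of a group came from separate animals, so p-values measure the spread between these libraries.

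Wnt proteins are secreted lipid-modified signals. They bind a Frizzled receptor together with Lrp5 or Lrp6, which halts the destruction of beta-catenin (encoded by Ctnnb1), and beta-catenin then acts with TCF/LEF factors such as Lef1 and Tcf7 on target genes, of which Axin2 is a feedback inhibitor. R-spondins raise the number of receptors at the cell surface. Dkk1 and Sost block Lrp5 and Lrp6, the Sfrp proteins, Frzb and Wif1 bind Wnt proteins, and Notum removes the lipid that Wnt proteins need. In bone this pathway drives osteoblast formation, and osteocytes restrain it through Sost, whose block needs Lrp4.

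Total counts per library ran from 21596798 to 67223388. Levels are in CPM, read counts scaled to the library's size after TMM normalization, and at these depths 3 counts equal 0.0437 to 0.161 CPM. Trp53, which encodes p53, ran from 8.52 to 20.1 CPM in p53fl/fl, from 26.05 to 49.2 in p53R172H/fl and from 22.0 to 60.1 in p53R245W/fl, so p53fl/fl did not overlap the missense groups. Column names carry 6 prefixes, used here as 3 sets. Set A pools 4 prefixes, each of 1 genotype, so that prefix and genotype cannot be told apart within it. It holds 8 p53fl/fl and 8 p53R172H/fl libraries. Set B holds 6 of each genotype, and set C holds 2 p53fl/fl, 5 p53R172H/fl and 11 p53R245W/fl libraries. Within set C, p53fl/fl and p53R172H/fl libraries share 1 lane code in their column names. Every p53R245W/fl library of that set except 1580 carries another code. Lane code and the p53R245W/fl genotype can therefore hardly be told apart within set C. All 18 set B libraries had a mutual best match in another set, always of the same genotype. Matched libraries correlated at a Spearman rho of 0.642 to 0.938 over 11086 genes, after removal of genotype and set means, and the next best match reached at most 0.516. Their labels carry different tumour numbers, and whether matched libraries come from 1 tumour was not tested beyond this. If they do, the 52 libraries stand for 34 units (10 p53fl/fl, 13 p53R172H/fl and 11 p53R245W/fl) and p-values over 52 libraries are too small. Tests are therefore given over 52 libraries and with matched libraries summed to 34 units. In 5 p53R245W/fl libraries (494, 1831, 408, 1835 and 1580, in 3 units) the level of Col1a1, the main collagen gene of bone, was under 13 log2 CPM, at 1053 to 4484 CPM against 12618 to 92790 CPM in the other 47. These 5 libraries differ from their label's tissue in other markers too, so each count is also given without them.

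Members differed widely in level. Per kilobase of exon, Ctnnb1 had the highest median over the 52 libraries, at 204.9 CPM per kb, followed by Wif1 at 40.3 and Lrp4 at 29.6. The highest ligand per kilobase was Wnt5a at 5.31 CPM per kb, the highest Frizzled receptor was Fzd5 at 13.8 and the highest R-spondin was Rspo3 at 1.21. Sostdc1 had no count in 32 libraries and Rspo4 in 27, and these 2 members did not pass the filter on low counts, which left 43 tested members. Between matched libraries, the median difference of a member ran from 0.09 log2 units for Wnt5a to 1.13 for Fzd10. For all 45 members it was smaller than the median difference between unmatched libraries of the same genotype. Matches were picked for similarity in these data, over genes that include well-expressed members, so this was largely fixed in advance. Of the 45 members, 25 had their highest library in the p53R245W/fl group, 15 of them in 1 of the 5 libraries of low Col1a1. How many of all genes have their highest library there was not counted, so this is not read as particular to the members. In the heat map of levels the 5 libraries show as columns at the right edge in which some rows are bright and others dark.

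**Figure D1:**
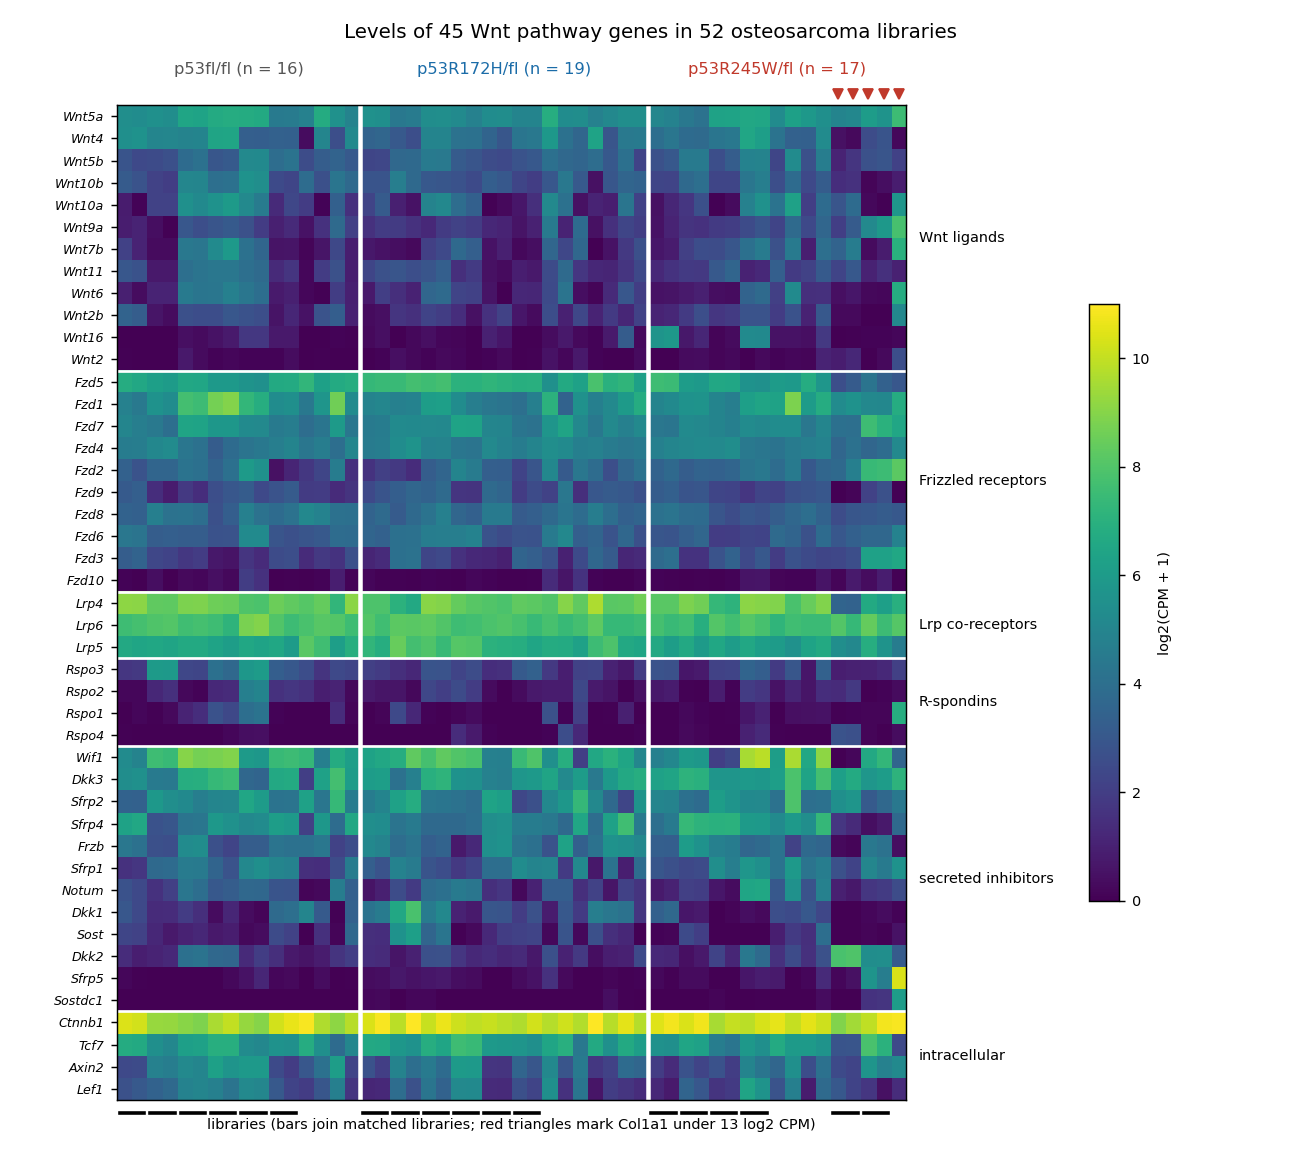
Level of each of 45 members (rows, by role) in each of 52 libraries (columns, by genotype); the colour is log2(CPM + 1), black bars join matched libraries and red triangles mark the 5 libraries of low Col1a1. Sfrp5, Wnt9a, Fzd2 and Fzd3 are bright in some of the marked columns, and Wnt16 is bright in 4 other p53R245W/fl columns.

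The comparison of the 2 missense alleles gave the most called members. With edgeR's quasi-likelihood test over 52 libraries and Benjamini-Hochberg adjustment over all 18882 tested genes, 14 of 43 members (32.6%) passed an adjusted p of 0.05 between p53R245W/fl and p53R172H/fl, 9 higher and 5 lower in p53R245W/fl. Of all tested genes 30.9% passed, 18.2% higher and 12.7% lower, so the members' share was near that of all genes. The median log2 fold change of the members was 0.24, against 0.07 for all genes. Without the 5 libraries of low Col1a1, 6 members passed (22.5% of all genes): Lrp5, Dkk1, Fzd5 and Fzd6 lower, and Wnt16 and Notum higher. With matched libraries summed, 8 members passed (15.2% of all genes), and 2 when the units of low Col1a1 were also left out (6.48% of all genes): Lrp5, which is 1 of the 8, and Wnt16, which is not. A paired fit (limma voom, adjusted for library set, correlation of 0.857 between matched libraries) called 3 members (1.55% of all genes): Lrp5, Dkk1 and Fzd5.

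Between p53R245W/fl and p53fl/fl, 11 of 43 members (25.6%) passed, 7 higher and 4 lower in p53R245W/fl, where 17.8% of all genes passed, 10% higher and 7.82% lower. The median of the members was -0.01, against 0.04 for all genes. Without the libraries of low Col1a1, 3 of the 11 passed (11.8% of all genes): Wnt16 higher, and Rspo3 and Fzd8 lower. Summed units gave 7 members (9.04% of all genes), and 1, Wnt16, without the units of low Col1a1 (4.32% of all genes). The paired fit with limma called none (0.0159% of all genes), with 9 members at an unadjusted p under 0.05, and DESeq2 called 12 (19% of all genes).

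Between p53R172H/fl and p53fl/fl, Fzd1 and Rspo3 passed, both lower in p53R172H/fl, which is 4.65% of the tested members against 3.75% of all genes (1.46% higher and 2.29% lower). The median of the members was -0.27, against -0.02 for all genes. Without the libraries of low Col1a1, which are all p53R245W/fl, 4 members passed (6.1% of all genes), since Lrp5 and Fzd5 were then called higher in p53R172H/fl. Summed units gave no called member with edgeR (0.259% of all genes), with 2 at an unadjusted p under 0.05, and none without the units of low Col1a1 (0.384% of all genes), with 5 at an unadjusted p under 0.05. The paired fit called none (0.0106% of all genes), with 4 at an unadjusted p under 0.05, and DESeq2 called 3 (5.85% of all genes). The comparisons with p53fl/fl share those 16 libraries, and the comparisons with p53R245W/fl share its 17.

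**Figure D2:**
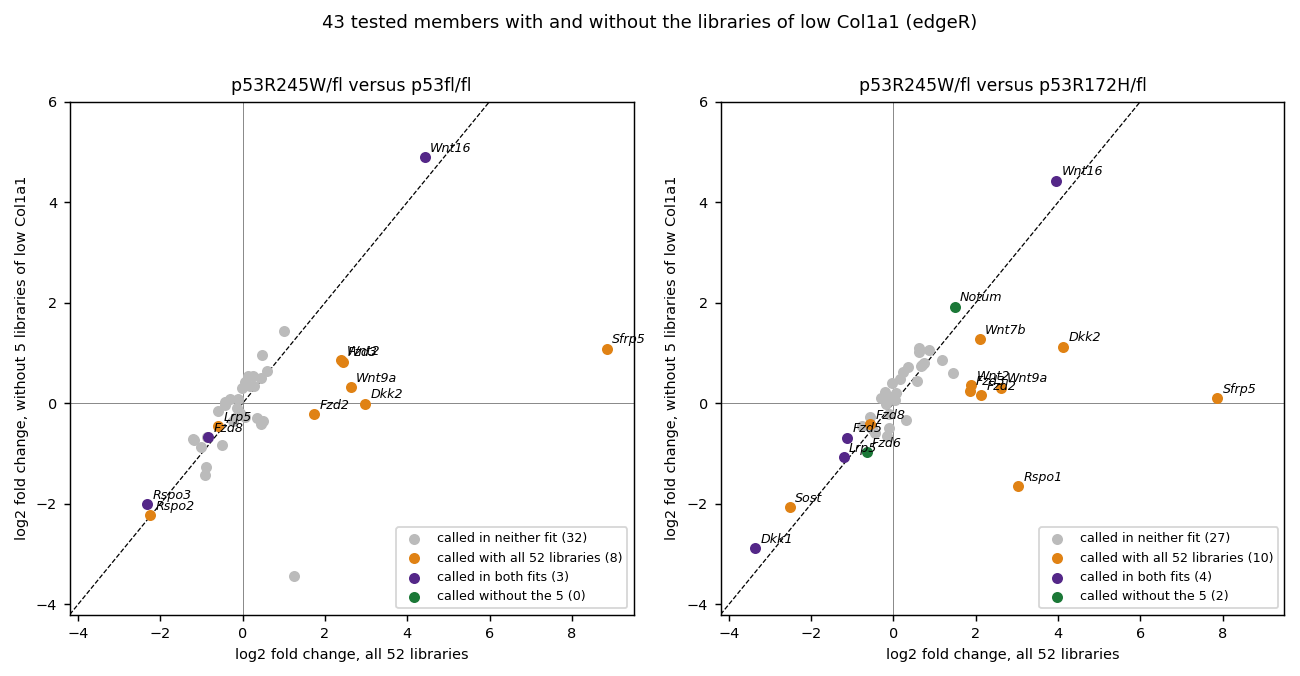
Log2 fold change of 43 tested members with all 52 libraries (x) and without the 5 libraries of low Col1a1 (y), for p53R245W/fl against p53fl/fl (left) and against p53R172H/fl (right); colours give the fits in which a member was called and the dashed line marks equal values. Sfrp5, at 8.85 and 7.87 on the x axes, lies near 1 and 0 on the y axes, while Wnt16, Dkk1, Lrp5 and Rspo3 lie close to the line.

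Among the ligands, Wnt16 (chr6:22288227-22298522, GRCm38), a ligand of bone cells known for its part in cortical bone thickness, was higher in p53R245W/fl. Its level ran from 0 to 2.45 CPM in p53fl/fl (median 0.16), from 0 to 8.22 in p53R172H/fl (median 0.22) and from 0 to 56.6 in p53R245W/fl (median 0.44). The high values came from 2 matched pairs: libraries 555 and 941 had 37.6 and 36.03 CPM, and libraries 431 and 1575 had 50.5 and 56.6 CPM. The other 13 p53R245W/fl libraries lay between 0 and 2.52 CPM, within the range of p53R172H/fl, so the groups overlap outside these 4 libraries. The log2 fold change was 4.43 ± 1.10 (SE) against p53fl/fl (edgeR adjusted p = 0.0043, 52 libraries) and 3.95 ± 1.001 against p53R172H/fl (adjusted p = 0.0024). Without the libraries of low Col1a1 these were 4.90 (adjusted p = 0.0025) and 4.43 (adjusted p = 0.0011), and without the pair holding library 1575 they were 3.38 and 2.91, both still called. With summed units the adjusted p was 0.0422 against p53fl/fl and 0.0591 against p53R172H/fl, and in the paired fit 0.352 and 0.544.

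The other 3 ligands that were called higher, Wnt9a, Wnt2 and Wnt7b, were not called without the libraries of low Col1a1. Wnt9a, which acts in joint and cartilage formation, had 223 CPM in library 1580, 56.5 in 1835 and 35.6 in 408, while the other 14 p53R245W/fl libraries lay at or below 12.7 and p53fl/fl ran from 0.06 to 12.8 (median 2.43). Its log2 fold change against p53fl/fl was 2.63 ± 0.69 (adjusted p = 0.0062), and it was not called without library 1580 (1.44) or without the 5 libraries (0.32, adjusted p = 0.746). Against p53R172H/fl, where Wnt9a ran from 0.39 to 21.6 CPM (median 1.97), it was 2.61, and 0.31 (adjusted p = 0.707) without them. Wnt7b, known to promote osteoblast formation, had 123 CPM in library 1580 and medians of 2.24 in p53fl/fl, 0.97 in p53R172H/fl and 5.59 in p53R245W/fl, or 5.36 without low Col1a1. It was called against p53R172H/fl at 2.10 ± 0.76 (adjusted p = 0.0307), and lay at 1.27 without library 1580 and at 1.27 (adjusted p = 0.226) without all 5. The call was also lost without any of units 1241, 1439, 622 or 889, each named by a library, at 1.95 to 1.97. Wnt2 was near the detection limit, with medians of 0.06, 0.09 and 0.16 CPM in p53fl/fl, p53R172H/fl and p53R245W/fl and 5.30 CPM in library 1580. It was called at 2.39 against p53fl/fl and at 1.90 against p53R172H/fl, and lay at 0.86 and 0.36, not called, without the 5 libraries. Leaving out 1 unit lost the first call in 5 cases and the second in 11, with the lowest values, 1.43 and 0.92, without library 1580. Wnt5a, the ligand of highest level and best known for signalling without beta-catenin, was not called in any comparison, with medians of 45.6, 40.1 and 48.9 CPM in p53fl/fl, p53R172H/fl and p53R245W/fl. The remaining 7 ligands were not called by edgeR over 52 libraries in the 3 comparisons either. Of these, Wnt10b was called lower in p53R245W/fl than in p53fl/fl by DESeq2 over 52 libraries.

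Among the Frizzled receptors, Fzd5 (chr1:64730558-64737751), the receptor of highest level, was lower in p53R245W/fl than in p53R172H/fl. It ran from 44.8 to 149 CPM in p53fl/fl (median 92.7), from 45.4 to 227 in p53R172H/fl (median 135) and from 5.22 to 189 in p53R245W/fl (median 59.8). Only 2 of 17 p53R245W/fl libraries, the matched pair 431 and 1575, lay above the p53R172H/fl median. The log2 fold change was -1.12 ± 0.30 (adjusted p = 0.0046), and -0.69 ± 0.21 (adjusted p = 0.0149) without the 5 libraries of low Col1a1, which held 5.22 to 17.6 CPM. Summed units gave -1.07 (adjusted p = 0.0442), the paired fit -1.54 (adjusted p = 0.0299), and summed units without low Col1a1 -0.67 (adjusted p = 0.117).

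Fzd1 (chr5:4753839-4758035), a receptor for canonical Wnt proteins, was lower in p53R172H/fl than in p53fl/fl. It ran from 19.98 to 495 CPM in p53fl/fl (median 50.1) and from 10.1 to 134 in p53R172H/fl (median 29.1). The matched libraries 459 and 4183 with 415 and 495 CPM and library 1606 with 387 CPM were the highest of p53fl/fl, and the other 13 ran from 19.98 to 212. Fzd1 differed by -1.72 ± 0.42 on the log2 scale (adjusted p = 0.0144), and without libraries 459 and 4183 it was -1.18 and no longer called. Summed units gave -1.54 (adjusted p = 0.223).

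Fzd8 was lower in p53R245W/fl than in both other genotypes. Its medians were 16.4 CPM in p53fl/fl, 12.5 in p53R172H/fl and 8.11 in p53R245W/fl, and a single library of 17 in p53R245W/fl exceeded the median of p53fl/fl. Against p53fl/fl the difference was -0.84 ± 0.21 (adjusted p = 0.0047), -0.68 (adjusted p = 0.046) without low Col1a1 and -0.92 (adjusted p = 0.0168) with summed units. Within set B it was -0.48 and within set C -0.39, neither called. Set A holds no p53R245W/fl library, and with library set as a term both Fzd8 calls were lost, at -0.66 (adjusted p = 0.0911) against p53fl/fl and -0.44 (adjusted p = 0.125) against p53R172H/fl. Without that term, the difference from p53R172H/fl was -0.57 (adjusted p = 0.0284), and -0.41 (adjusted p = 0.174) without low Col1a1. That call was also lost without any of units 1509, 1827, 1831, 1835, 622 and 941, at -0.53 to -0.47.

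Fzd2 and Fzd3, the latter a receptor of planar cell polarity, were called higher in p53R245W/fl, with the highest values in libraries 408, 1835 and 1580. In those libraries Fzd2 had 168, 182 and 303 CPM and Fzd3 had 76.5, 76.9 and 92.3 CPM. In the 12 p53R245W/fl libraries without low Col1a1, Fzd2 ran from 7.10 to 22.1 CPM and Fzd3 from 2.04 to 15.1. Against p53fl/fl, Fzd2 changed by 1.74 ± 0.57 (adjusted p = 0.0273) and lay at -0.22 (adjusted p = 0.803) without low Col1a1, and its call was lost without any of units 1427, 1431, 1580 and 1835, at 1.15 to 1.68. Fzd3 changed by 2.43 ± 0.55 (adjusted p = 0.0019) and lay at 0.83 (adjusted p = 0.217) without low Col1a1. Against p53R172H/fl the values were 2.12 for Fzd2 and 1.86 for Fzd3, and 0.16 and 0.25 without low Col1a1. Without unit 1835 Fzd3 lay at 1.15 and was not called. Fzd6 passed against p53R172H/fl without the 5 libraries of low Col1a1, at -0.97 (adjusted p = 0.0319), and lay at -0.65 (adjusted p = 0.0937) with them. The remaining 4 Frizzled receptors were not called by edgeR with genotype as the only term, with or without those libraries.

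Lrp5 (chr19:3584828-3686564), the Wnt co-receptor in which human loss causes low and gain causes high bone mass, was lower in p53R245W/fl than in p53R172H/fl. It ran from 65.6 to 290 CPM in p53fl/fl (median 91.7), from 77.7 to 345 in p53R172H/fl (median 135) and from 23.2 to 115 in p53R245W/fl (median 67.6). None of the 17 p53R245W/fl libraries lay above the p53R172H/fl median, and 10 lay below the lowest p53R172H/fl library. Of these 10, library 494 is in set B and the others are in set C. Among them, libraries 1575, 1827, 1817, 941 and 1835 held 67.6, 65.6, 63.4, 70.1 and 49.4 CPM. Their set B matches 431, 433, 485, 555 and 408 held 97.2, 92.6, 99.4, 94.9 and 115 CPM. The part of library set in the count of 10 was not tested. The log2 fold change was -1.21 ± 0.21 (edgeR adjusted p = 4.2e-05). It was -1.08 (adjusted p = 0.0005) without low Col1a1, -1.17 (adjusted p = 0.0042) with summed units and -0.99 (adjusted p = 0.0246) with summed units without low Col1a1. Within set B, with 6 libraries a genotype, it was -1.22 (adjusted p = 0.0267 from edgeR), and within set C -1.15 (adjusted p = 0.12). The paired fit gave -0.85 (adjusted p = 0.0454), and without low Col1a1 -0.64 (adjusted p = 0.174). Leaving out any 1 unit kept the value between -1.27 and -1.10.

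Against p53fl/fl, Lrp5 was lower in p53R245W/fl by a log2 fold change of -0.60 ± 0.21 (adjusted p = 0.0425). Within set B this difference was 0.03 and within set C -0.16, so it did not hold within sets. The call was lost without any 1 of 9 units, at -0.61 to -0.43. In p53R172H/fl against p53fl/fl, Lrp5 was called higher without low Col1a1, with library set as a term and with DESeq2. That difference was not called by edgeR over all libraries with genotype as the only term, with summed units, in the paired fit or within sets. In bulk tissue, fewer cells of a type and less RNA per cell cannot be told apart. The summed level of 11 osteoblast markers had medians of 100879 CPM in p53R172H/fl and 56064 in p53R245W/fl, and of 84126 in p53R245W/fl without low Col1a1. The part of these markers in the Lrp5 difference was not tested, and the difference was -1.08 without the low libraries. Lrp6, the other signalling co-receptor, and Lrp4 were not called. Lrp6 had medians of 222, 219 and 196 CPM in p53fl/fl, p53R172H/fl and p53R245W/fl, with no library under 119 CPM. Lrp4 lay between 71.9 and 795 CPM in all libraries except 494 and 1831, which had 10.6 and 9.88 CPM.

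**Figure D3:**
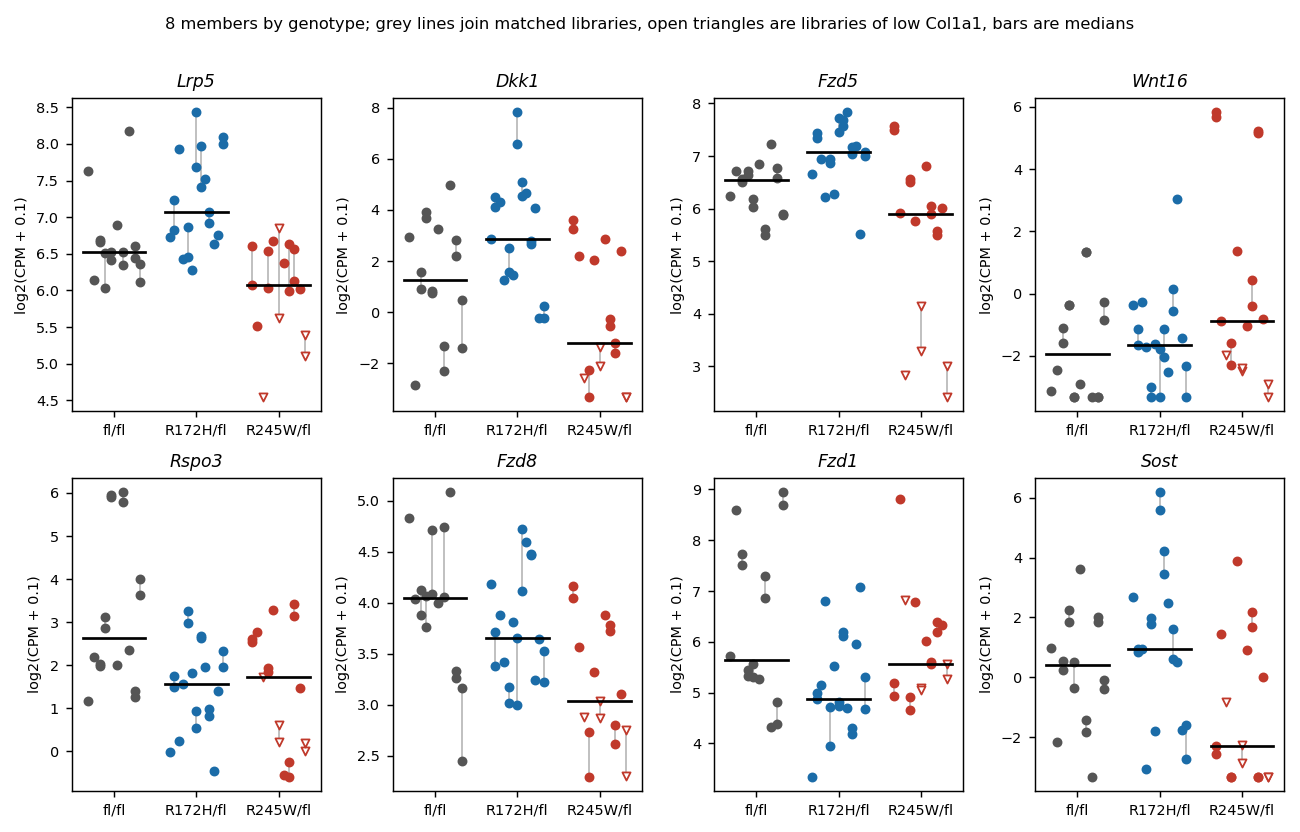
Level of 8 members in each library by genotype, as log2(CPM + 0.1); grey lines join matched libraries, open triangles are the 5 libraries of low Col1a1 and black bars are group medians. Lrp5 in p53R245W/fl lies below the p53R172H/fl median in all 17 libraries, and Wnt16 stands out in 2 matched pairs.

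Among the R-spondins, Rspo3 (chr10:29452416-29535867), the one of highest level, was lower in both missense genotypes than in p53fl/fl. It ran from 2.17 to 65.0 CPM in p53fl/fl (median 6.09), from 0.63 to 9.55 in p53R172H/fl (median 2.86) and from 0.57 to 10.6 in p53R245W/fl (median 3.20). The matched pairs 475 with 562 and 471 with 1431 held 55.5 to 65.0 CPM, and the other 12 p53fl/fl libraries ran from 2.17 to 15.9 (median 4.23). In each missense genotype 7 libraries lay below the lowest p53fl/fl library, and matched pairs are among them. In p53R172H/fl these were pairs 476 with 1439 and 524 with 622, and libraries 627, 847 and 1441. In p53R245W/fl they were pairs 485 with 1817, 494 with 1831 and 408 with 1835, and library 1832. Pairs 494 with 1831 and 408 with 1835 are of low Col1a1. The fold change on the log2 scale was -2.49 ± 0.49 in p53R172H/fl (adjusted p = 0.0021) and -2.32 ± 0.50 in p53R245W/fl (adjusted p = 0.0013), and both stayed called when any 1 unit was left out. Within sets A, B and C the p53R172H/fl value was -2.80, -2.57 and -1.22, and within sets B and C the p53R245W/fl value was -2.79 and -1.27, none called. Summed units gave an adjusted p of 0.0736 for p53R172H/fl and of 0.0358 for p53R245W/fl. The p53R245W/fl call was lost with summed units without low Col1a1 (-1.73, adjusted p = 0.14), with set as a term without low Col1a1 (-2.17, adjusted p = 0.0775) and in the paired fit (-1.62, adjusted p = 0.237).

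Rspo2, which acts in limb growth, was called lower in p53R245W/fl than in p53fl/fl at -2.24 ± 0.75 (adjusted p = 0.0308), and this rested on 1 matched pair. Libraries 475 and 562 had 29.8 and 25.9 CPM, the other 14 p53fl/fl libraries at most 2.39, and p53R245W/fl at most 2.88. Without that pair the value was -0.22, and the call was also lost without unit 1817 (-2.01) or 1827 (-2.10). Rspo1 was called higher in p53R245W/fl than in p53R172H/fl at 3.03 ± 1.18 (adjusted p = 0.0448), from 115 CPM in library 1580, while no other p53R245W/fl library passed 1.10 CPM. Without library 1580 the value turned to -1.92, with DESeq2 over 52 libraries it was -1.37 and within set B -2.33, none of them called, and the call was lost without any of 10 other units, all at 2.82 to 3.03.

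Among the secreted inhibitors, Dkk1 (chr19:30545863-30549665), which blocks Lrp5 and Lrp6, was lower in p53R245W/fl than in p53R172H/fl. It ran from 0.04 to 31.2 CPM in p53fl/fl (median 2.32), from 0.76 to 225 in p53R172H/fl (median 7.15) and from 0 to 12.2 in p53R245W/fl (median 0.33). The matched libraries 476 and 1439 held 95.9 and 225 CPM, and the other 17 p53R172H/fl libraries ran from 0.76 to 34.3. Only 2 of 17 p53R245W/fl libraries, the matched pair 431 and 1575, lay above the p53R172H/fl median, and 11 lay below its lowest library. These 11 were the matched pairs 433 with 1827, 485 with 1817, 494 with 1831, 555 with 941 and 408 with 1835, and library 1580. All 5 libraries of low Col1a1 are among the 11. Dkk1 differed by -3.36 ± 0.85 on the log2 scale (adjusted p = 0.0024), and -2.13 without libraries 476 and 1439, still called. It was -2.88 (adjusted p = 0.0164) without low Col1a1, -3.00 (adjusted p = 0.0405) with summed units, -2.56 (adjusted p = 0.12) with summed units without low Col1a1 and -4.51 (adjusted p = 0.0353) in the paired fit. Dkk1 was not called against p53fl/fl in either missense genotype.

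Sost, the osteocyte product sclerostin, ran from 0 to 12.1 CPM in p53fl/fl (median 1.21), from 0.02 to 73.5 in p53R172H/fl (median 1.83) and from 0 to 14.7 in p53R245W/fl (median 0.10). It was called lower in p53R245W/fl than in p53R172H/fl at -2.52 ± 0.93 (adjusted p = 0.0335), and lay at -2.06 (adjusted p = 0.125) without low Col1a1, at -1.81 (adjusted p = 0.287) with summed units and at -1.10 without the matched libraries 476 and 1439, none of them called. The Sost call was also lost without any of units 1509, 1575, 1827, 1831, 1835 and 941, at -2.42 to -2.33. Of 6 tested osteocyte markers in the same comparison, 3 were lower and 1 higher over 52 libraries (30.9% of all genes called). Their summed level had medians of 478 CPM in p53R172H/fl and 212 in p53R245W/fl, with ranges of 157 to 1105 and 38.01 to 805. In libraries 494 and 1831, of low Col1a1, the sums of 243 and 207 CPM held 240 and 204 CPM of Pdpn. Dmp1 was at 0.21 and 0.23 CPM there, so the sum does not show the loss of single markers. The part of the osteocyte markers in the Sost and Dkk1 differences was not tested.

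**Figure D4:**
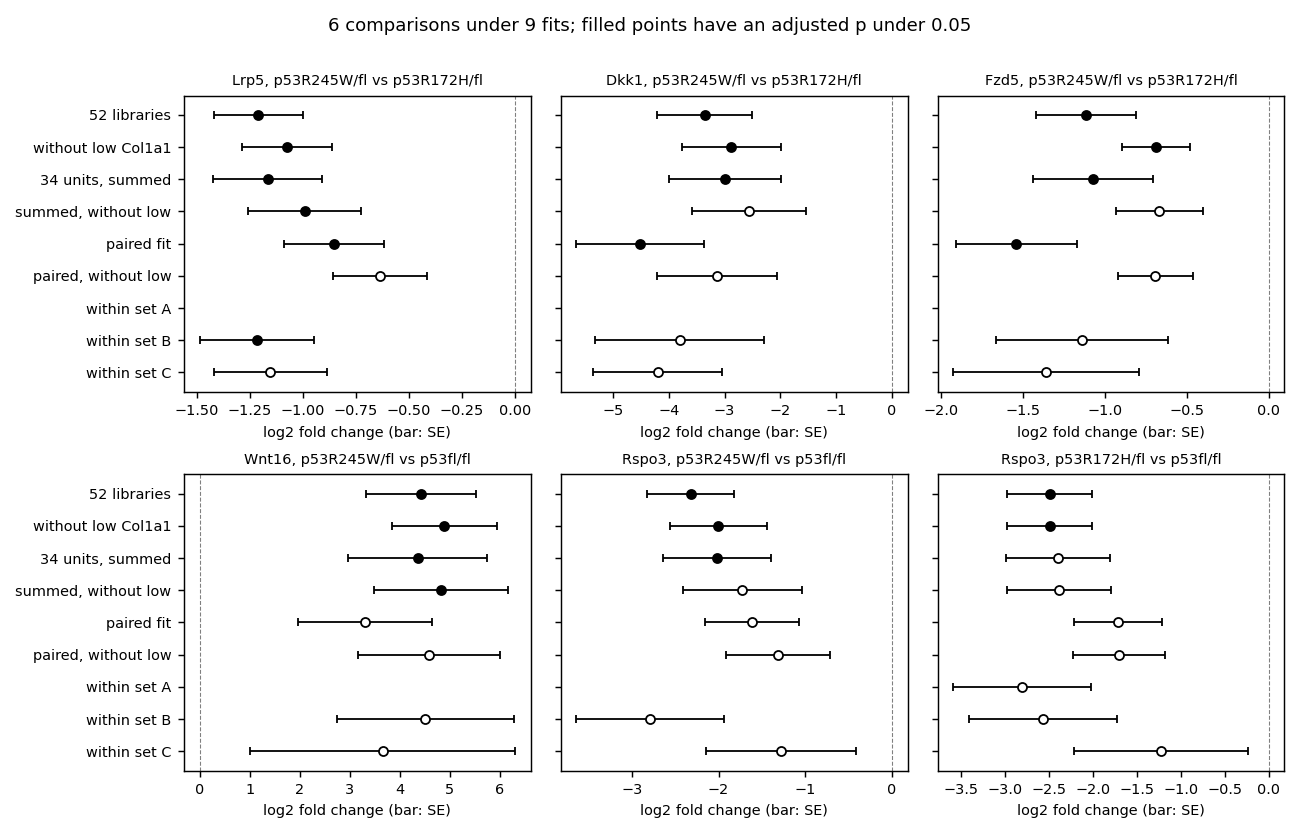
Log2 fold change with its SE for 5 members in 6 comparisons under 9 fits: over 52 libraries, without low Col1a1, with summed units, in the paired fit and within each library set. Filled points have an adjusted p under 0.05. Lrp5, Dkk1, Fzd5 and Rspo3 lie below 0 and Wnt16 above 0 in each fit shown, and of the fits within sets shown, Lrp5 in set B alone is filled.

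Sfrp5 and Dkk2 were called higher in p53R245W/fl than in both other genotypes, and the highest levels lay in libraries of low Col1a1. Sfrp5, a decoy for Wnt proteins, had 1322 CPM in library 1580, 49.96 in 408 and 24.2 in 1835, at most 1.51 CPM in the other 14 p53R245W/fl libraries, at most 1.30 in p53fl/fl and at most 1.95 in p53R172H/fl. Its log2 fold change was 8.85 ± 1.45 against p53fl/fl (adjusted p = 8.3e-05), 4.80 without library 1580, and 1.08 (adjusted p = 0.38) without all 5. Dkk2 had 231 and 250.1 CPM in libraries 494 and 1831, 40.7 and 42.5 in 408 and 1835, and at most 20.2 in the other 13, against 0.48 to 17.2 in p53fl/fl (median 1.69). Its log2 fold change against p53fl/fl was 2.98 ± 0.72 (adjusted p = 0.0036) and -0.01 (adjusted p = 0.994) without low Col1a1, and without libraries 494 and 1831 it was 1.06 and not called. Against p53R172H/fl the values were 7.87 for Sfrp5 and 4.11 for Dkk2, and 0.10 (adjusted p = 0.934) and 1.13 (adjusted p = 0.114) without low Col1a1.

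Wif1, the inhibitor of highest level, was not called, with medians of 163 CPM in p53fl/fl, 116 in p53R172H/fl and 63.2 in p53R245W/fl and a range in the last from 0 in library 494 to 924 in library 941. Notum, itself a target of the pathway, had medians of 6.74, 2.63 and 3.05 CPM in p53fl/fl, p53R172H/fl and p53R245W/fl, with 86.7 and 92.4 CPM in libraries 555 and 941. Against p53R172H/fl, Notum lay at 1.49 (adjusted p = 0.0759) over 52 libraries with edgeR, and passed without low Col1a1, at 1.92 (adjusted p = 0.0357), and with DESeq2 over 52 libraries. The other 5 secreted inhibitors tested were not called by edgeR with genotype as the only term, over all 52 libraries or without the 5 of low Col1a1. Of these 5, Sfrp4 was called higher in p53R245W/fl than in p53R172H/fl with library set as a term and low Col1a1 left out. Dkk3 was called higher in that comparison when only these genotypes were fitted. Sostdc1, left out by the filter, was called higher in p53R245W/fl than in p53fl/fl by DESeq2 and by edgeR without the filter. It reached at most 0.28 CPM in p53R245W/fl libraries without low Col1a1.

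The 4 intracellular members were not called in the 3 comparisons over 52 libraries by edgeR or DESeq2. At an unadjusted p under 0.05 there was 1 of them in each comparison with p53fl/fl and 0 between the missense alleles, with either tool. Axin2, the feedback inhibitor, had medians of 25.9 CPM in p53fl/fl (2.92 to 74.1), 11.3 in p53R172H/fl (2.15 to 63.6) and 5.87 in p53R245W/fl (1.59 to 52.8), so the ranges overlapped widely. Lef1 had medians of 11.4, 3.73 and 3.59 CPM in p53fl/fl, p53R172H/fl and p53R245W/fl, and Tcf7 of 45.97, 88.1 and 49.4. Ctnnb1 had medians of 794, 1090 and 1297 CPM, and was called higher in p53R245W/fl than in p53fl/fl by limma voom with quality weights, at 0.56.

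The 5 libraries of low Col1a1 differed among themselves and are described here by unit, though some values recur in other units or libraries. The matched libraries 408 and 1835 had high Fzd7 (192 and 129 CPM), Tcf7 (229 and 129), Fzd2 and Fzd3. Fzd2 and Fzd3 were also high in library 1580, and Tcf7 was at 192 CPM in p53R172H/fl library 383. Libraries 408 and 1835 also differed in other markers. They kept the osteoblast factor Sp7 at 125 and 122 CPM, within the 81.8 to 302 CPM of p53fl/fl, beside summed Schwann and neural crest markers of 1615 and 1402 CPM and summed epithelial markers of 318 and 248 CPM, where p53fl/fl reached at most 69.4 and 21.6. The matched libraries 494 and 1831 had Dkk2 at its highest, Wif1 at 0 and 0.15 CPM, Frzb at 0.21 and 0.12 and Rspo4 at 5.96 and 5.43, with Sp7 at 0.05 and 0.18 CPM. Their 7 macrophage markers summed to 5956 and 5295 CPM, above the 2615 CPM of the highest p53fl/fl library. Frzb was also low in library 1580 (0.31 CPM), and Rspo4 was at 5.03 CPM in p53R172H/fl library 1441. Library 1580 was the highest of all 52 for 11 members, among them Sfrp5, Wnt9a, Wnt7b, Wnt6 (112 CPM), Rspo1, Sostdc1 (67.4 CPM) and Wnt5a (185 CPM), and the lowest for Lrp5, Tcf7 (4.42 CPM) and Wnt4 (0.17 CPM). Its Runx2 was at 5.52 CPM against 134 to 283 in p53fl/fl, its Sp7 at 1.85, and its epithelial markers summed to 249 CPM, 243 of them from Perp. Summed osteoblast markers were 4170 to 11651 CPM in the 5 libraries, against 34598 CPM in the lowest p53fl/fl library. These values stand beside the members, and the part of cell makeup in them was not tested. How many of all genes were highest in library 1580 was not counted.

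Members that varied with Axin2 were read over the 34 units, since Axin2 is a direct target of beta-catenin. Of 42 members compared, 12 correlated with Axin2 past an adjusted p of 0.05 (two-sided permutation test of Pearson's r, 100000 resamples, Benjamini-Hochberg over 42), all positively. By Spearman's rho 19 passed, 15 positively, these 12 among them, and 4 negatively: Dkk1, Frzb, Fzd5 and Fzd9. The share of all genes that correlate with Axin2 was not computed, so these and the later counts stand without a background. The 12 that passed by r were Lef1 (r = 0.70, rho = 0.66), Rspo1 (r = 0.68), Fzd1 (r = 0.67), Fzd7 (r = 0.60), Wnt6 (r = 0.57), Fzd2, Wnt9a and Wnt7b (r = 0.56 each), Wnt5a (r = 0.55), Wnt10a (r = 0.52), Notum (r = 0.51) and Fzd10 (r = 0.50). Lef1 had a permutation p of 2e-05 for r (0.00028 adjusted) and 5e-05 for rho (0.00091 adjusted), where 1e-05 is the smallest these resamples can give. Rspo1 and Fzd10 had medians of 0.10 and 0.09 CPM, so their values turn on few counts. Without the 2 units farthest from the Axin2 median, 622 and 1575, all 12 kept their sign, and Lef1 had r = 0.66. Within genotypes the Lef1 value was 0.90 over 10 p53fl/fl units, 0.88 over 13 p53R172H/fl units and 0.36 over 11 p53R245W/fl units, the last not past the threshold (permutation adjusted p = 0.571). Within library sets A, B and C, Lef1 had r = 0.88, 0.70 and 0.45, Rspo1 0.66, 0.73 and 0.66, and Fzd1 0.75, 0.57 and 0.67. The adjusted threshold was passed by 5 members within p53fl/fl, 2 within p53R172H/fl and 1 within p53R245W/fl. Without the 3 units of low Col1a1, 25 members passed, 19 positive and 6 negative, among them Lef1 at 0.85, Dkk1 at -0.46, and Frzb and Ctnnb1 at -0.58 each.

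Dkk1 had r = -0.41 over all units (permutation adjusted p = 0.0548) and rho = -0.49 (permutation adjusted p = 0.0128), so only the rank correlation passed. Within sets A, B and C its r was -0.81, -0.22 and -0.13. Within p53fl/fl its r was -0.87 (permutation adjusted p = 0.0183, 10 units), within p53R172H/fl -0.41 and within p53R245W/fl -0.10, the latter pair not past the threshold. Lrp5 (r = -0.16) and Wnt16 (r = -0.07) did not pass.

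**Figure D5:**
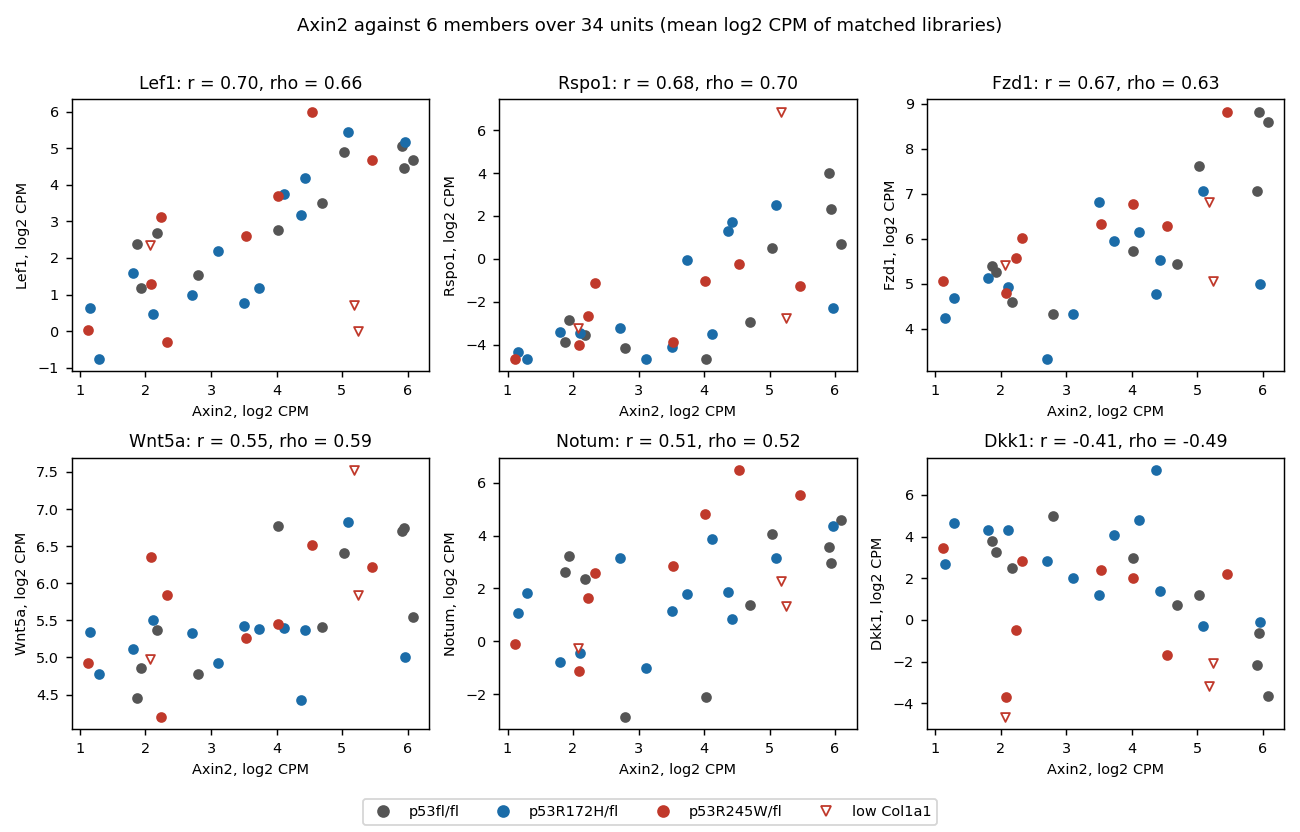
Axin2 (x) against 6 members (y) over 34 units, as mean log2 CPM of matched libraries, coloured by genotype with open triangles for units of low Col1a1. Lef1, Rspo1, Fzd1, Wnt5a and Notum rise with Axin2, r between 0.51 and 0.70, and Dkk1 has r = -0.41.

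Promoters from RefSeq (GRCm38.p6, 250 bases before to 50 after the start) were found for 28 of the 45 members, and searched for the TCF/LEF core CTTTGAA or CTTTGTT on both strands. Dkk1 (r = -0.41 with Axin2) and Fzd7 (r = 0.60) were the 2 among them with a match, and both are shown because these letters are the core that TCF/LEF factors recognise. The Dkk1 promoter held both forms, at -117 to -111 and -98 to -92 from the start (chr19:30549586-30549615, minus strand), in a stretch that GENCODE M21 places inside the first exon. The Fzd7 promoter held 1 reverse complement match, AACAAAG, at -130 to -124 (chr1:59481997-59482076, plus strand). These positions are from the RefSeq start. GENCODE M21 starts Fzd7 at 59482424, so the stretch lies further upstream of that start. Capitals mark the cores.
Dkk1: agCTTTGAAatcccatcccggCTTTGTTgt
Fzd7: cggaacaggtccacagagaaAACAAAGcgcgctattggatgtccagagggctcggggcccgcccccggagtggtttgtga
Of all 32851 promoters of this length 10.6% held either form and 0.399% held both.

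Other genes of the pathway were counted from 3 lists. Of 29 tested secretion and surface partners, 4 were higher and 1 lower in p53R245W/fl than in p53R172H/fl (30.9% of all genes called). Without low Col1a1 these counts were 2 and 1 (22.5% of all genes), and with summed units 3 and 0 (15.2%). Wls, which carries Wnt proteins to the cell surface, was at 0.72 (adjusted p = 0.0025), 0.50 (adjusted p = 0.0377) without low Col1a1 and 0.76 with summed units. Gpc3, a heparan sulfate proteoglycan, was at 3.82, and at 0.52 (adjusted p = 0.506) without low Col1a1. Prickle1 and Vangl1, of planar cell polarity, were at 1.09 and 0.70, and Celsr3 at -1.19, and none of these 3 was called without low Col1a1. Against p53fl/fl, Gpc3 (4.27) and Musk (1.83) were higher and Ptk7 (-0.68) lower in p53R245W/fl, none called without low Col1a1. In p53R172H/fl, Musk (2.22) and Vangl2 (1.15) were higher and Prickle1 (-1.07) and Ptk7 (-0.78) lower than in p53fl/fl, and none was called with summed units. Beside Musk, the receptor kinase of the neuromuscular junction, stood skeletal muscle markers: 4 of 7 were called higher in that comparison (1.46% of all genes), and 0 with summed units, and their summed medians were 1226 CPM in p53R172H/fl and 161 in p53fl/fl. Their part in the Musk difference was not tested.

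Of 36 intracellular transducers, 7 were higher and 7 lower in p53R245W/fl than in p53R172H/fl, where 18.2% of all genes were higher and 12.7% lower. Without low Col1a1, 1 was higher and 8 were lower (22.5% of all genes called). With summed units, 1 was higher and 3 were lower (15.2% of all genes called). Over 52 libraries, Tle3, a corepressor of TCF/LEF factors, was lower by -0.84 ± 0.13 (adjusted p = 1.1e-05). Bcl9l, a beta-catenin coactivator, was lower by -1.19 ± 0.24 (adjusted p = 0.0002), and Dvl3, a Dishevelled protein, by -0.70 ± 0.18 (adjusted p = 0.0029). These 3 were also called without low Col1a1 (-0.97, -0.85 and -0.55) and with summed units (-0.81, -1.14 and -0.66). Csnk1a1 (0.40), Ctnnbip1 (0.49) and Daam1 (0.37) were higher, and none of them was called without low Col1a1. The same Tle3 (0.52), Dvl3 (0.61) and Bcl9l (0.79) were the transducers called higher in p53R172H/fl than in p53fl/fl, and none was called with summed units. Against p53fl/fl, Fbxw11 (0.37), Ctnnbip1 (0.43), Csnk1d (0.30) and Frat2 (1.02) were higher in p53R245W/fl, none called without low Col1a1. Without those libraries, 3 other transducers were called lower and 0 higher in that comparison (11.8% of all genes called). Of 17 direct target genes besides Axin2, Lef1 and Notum, Tnfrsf11b (-1.97), the osteoclast inhibitor osteoprotegerin, and Myc (-0.90) were lower in p53R245W/fl than in p53R172H/fl, neither called without low Col1a1 or with summed units. Against p53fl/fl, edgeR called none of the 17, with 2 in p53R172H/fl and 3 in p53R245W/fl at an unadjusted p under 0.05, and DESeq2 called 0 and 1, the latter Nkd1. Their median log2 fold changes there were -0.33 in p53R172H/fl and -0.34 in p53R245W/fl, against -0.02 and 0.04 for all genes.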

How the data were processed

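Per the labels' protocols, RNA from flash-frozen tumours came from a Zymo Direct-zol column and went into stranded mRNA libraries. Per the submitters' processing notes, reads were aligned with STAR to GRCm38; no counting program or annotation release is named. The authors deposited raw read counts for 20730 genes in 52 libraries, with no gene total under 260. Identifiers were joined without version to GENCODE M21 (20668 matched, 62 not). Genotypes came from the labels, library sets from column-name prefixes.

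With edgeR 4.0.16 (R 4.3.3), the 52 libraries were fitted with 1 coefficient per genotype, TMM sizes and robust quasi-likelihood tests, on genes kept by filterByExpr at a minimum count of 10. A standard error is the size of a log2 fold change divided by the root of its F. Log2 CPM used a prior count of 2. Alternatives, whose effect closes the text, changed the normalization, filter, libraries, set adjustment or tool, using limma 3.58.1 and DESeq2 1.42.0. The edgeR script was tested on simulated data.

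Named are members called in any comparison, the highest member per role, and a fixed set of 12 genes; of the other lists, up to 6 called genes each by smallest p. Markers of cell types and genes outside this rule (Fzd6, Wnt6, Sostdc1, Frzb, Rspo4, Fzd7, Fzd9, Fzd10, Wnt4, Wnt10a, Wnt10b, Sfrp4, Dkk3, Nkd1) were named after their values were seen. The members and lists were chosen with earlier results of these data known.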

Additional observations from a re-analysis of the deposited data

How the results depend on the processing

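No paired analysis was possible because the labels give the genotypes no shared replicate numbers; the paired fit above uses matches found in the data. Counts of called members are given in the order p53R172H/fl against p53fl/fl, p53R245W/fl against p53fl/fl, p53R245W/fl against p53R172H/fl. They were 2, 11 and 14 over 52 libraries, 4, 3 and 6 without low Col1a1, 0, 7 and 8 with summed units, 0, 1 and 2 with summed units without low Col1a1, and 0, 0 and 3 in the paired fit (0, 0 and 0 without low Col1a1, where 7, 5 and 7 had an unadjusted p under 0.05). Library set as a covariate gave 3, 7 and 10 (4.82%, 5.32% and 22.8% of all genes), and 4, 1 and 6 without low Col1a1 (7.17%, 0.737% and 14.1%). limma voom with quality weights gave 0, 3 and 7 (5.08%, 14.8% and 25.9%), where 7, 11 and 13 had an unadjusted p under 0.05, and fitting only the genotypes compared 3, 7 and 13 (5.42%, 14% and 30.8%). Within set B the counts were 0, 0 and 1 (0.00549%, 0.022% and 3.38% of all genes), and 0, 0 and 2 without low Col1a1 (0%, 0.0263% and 4.1%). Within set C they were 0, 0 and 0 (0%, 0% and 0.0148%), also without low Col1a1 (0.00507%, 0% and 0.0254%). Within set A the count was 0 for its 1 comparison (0.532%). Unadjusted, 4, 8 and 10 members passed in set B, 3, 0 and 14 in set C and 2 in set A. RLE factors, no filter, a minimum count of 50 and DESeq2 (3, 12 and 13, with 5.85%, 19% and 30.8% of all genes) stayed within 1.5 times. Leaving out 1 unit gave 1 to 3, 8 to 13 and 10 to 16; the lowest first count came without unit 4183.

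Signs turned for 8 comparisons of members. Against p53fl/fl in p53R245W/fl, Dkk2 went to -0.0088 without low Col1a1, -0.027 with set as covariate and -0.67 within set C, both also without low Col1a1. Fzd2 went to -0.22, -0.047 with summed units and -0.39 within set B, all without low Col1a1. Wnt9a went to -0.19 within set B without low Col1a1. Lrp5 went to 0.028 within set B, and to 0.11 and 0.067 within sets B and C without low Col1a1. Against p53R172H/fl, Rspo1 went to -1.65 without low Col1a1, -1.15 with set as covariate, -1.76 with summed units, -2.03 in set B and -0.50 when paired, these 4 also without low Col1a1, to -2.33 within set B, -1.37 with DESeq2 and -1.92 without unit 1580; leaving out any other unit it lay at up to 3.59. Without low Col1a1, Fzd3 went to -0.020 within set C, Sfrp5 to -0.24 with set as covariate and -0.36 within set B, and Wnt2 to -0.11 in the paired fit. In the other alternatives that leave no unit out, 187 values of called members kept sign and call and 238 kept the sign only. The causes were not tested.

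Correlations with Axin2 passed for 12 members, for 25 without low Col1a1, for 25 over single libraries, for 5, 2 and 1 within p53fl/fl, p53R172H/fl and p53R245W/fl, and for 7, 5 and 7 within sets A, B and C, where fewer units enter. No share of all genes was computed for these counts. The alternatives that leave out units, and those without low Col1a1 in the set and paired fits, were chosen after seeing the data. Members near 3 counts (Wnt2, Fzd10, Rspo1, Rspo4, Sostdc1) are limited by depth. Wnt16 and Sfrp5 had medians of 0.16 and 0.05 CPM in p53fl/fl, and of 0.22 and 0.26 CPM in p53R172H/fl. The size of their fold changes against these groups therefore turns on few counts.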
